A study of Homo sapiens with 6 samples.

Results

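The matrix metalloproteinases examined here are 10 genes, taken by symbol from the 19475 gene symbols of a deposited RNA-seq count table. They comprise the collagenases MMP1 and MMP13, the stromelysins MMP3 and MMP10, the gelatinases MMP2 and MMP9, the secreted enzymes MMP11, MMP12 and MMP19, and the membrane-type enzyme MMP14. The cells were MH7A, an immortalised synovial fibroblast line from a patient with rheumatoid arthritis that carries a viral large T antigen, so it is a single line and not primary tissue. In 3 libraries (replicates 4, 6 and 10) the cells had TNFα at 10 ng/ml and were lit by an LED of 630 nm on 3 occasions of 15 min each. In 3 others (replicates 2, 8 and 14) they had TNFα at 10 ng/ml alone. Every library thus came from TNFα-treated cells, and the comparison asks what differed with the light.

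Matrix metalloproteinases are zinc-dependent enzymes that cut proteins of the extracellular matrix. Most are secreted as inactive precursors, whose propeptide keeps the active site shut until another protease removes it, and they are held in check by the TIMP proteins. In the rheumatoid joint, synovial fibroblasts exposed to TNFα and IL1 are a known source of the collagenase MMP1 and the stromelysin MMP3, which break down fibrillar collagen and proteoglycans. MMP14 sits in the plasma membrane, cuts collagen at the cell surface and, together with TIMP2, activates the MMP2 precursor.

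The 2 members that changed with the light were MMP14 and MMP11, and both fell. MMP14 was 1.94-fold lower and MMP11 was 3.56-fold lower in cells given TNFα plus LED than in cells given TNFα alone. None of the secreted collagenases and stromelysins as grouped here (MMP1, MMP13, MMP3 and MMP10) passed the test. MMP11, though known as stromelysin-3, was grouped apart from them. MMP3 had 1.44 times the level of the TNFα-alone cells, and MMP1 had 0.796 times that level. Of the 10 members 9 had enough counts to be tested (all but MMP9), of which 0 rose, 2 fell and 7 did not pass, by edgeR's quasi-likelihood test at an adjusted p below 0.05 over all genes. Over all 13794 genes tested, 2.44% were called higher and 2.73% lower. At an unadjusted p below 0.05 by edgeR, 1 member was higher and 2 were lower. The share of all genes at an unadjusted p below 0.05 was not computed, here or for the lists below. Such counts therefore cannot be weighed. DESeq2 called 0 members higher and 2 lower, against 837 higher and 809 lower of 15952 genes in all. Limma-voom called 0 and 1, against 321 and 338 of 13794. The median log2 fold change (TNFα plus LED over TNFα alone, as throughout) was -0.28 over the 9 tested members and 0.01 over all tested genes.

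The promoter windows of both genes that fell are printed here with that of MMP10, from the secreted group, to set their base composition side by side. They run from 250 bases before to 50 bases after the annotated start and come from RefSeq on GRCh38.p14. Of the 10 members 3 matched the table, and MMP1, MMP2, MMP3, MMP9, MMP12, MMP13 and MMP19 did not. Capitals mark matches to 4 motifs searched on both strands, and each run reads 5′ to 3′ on the gene's strand.
MMP14, chr14:22836335-22836634, plus strand: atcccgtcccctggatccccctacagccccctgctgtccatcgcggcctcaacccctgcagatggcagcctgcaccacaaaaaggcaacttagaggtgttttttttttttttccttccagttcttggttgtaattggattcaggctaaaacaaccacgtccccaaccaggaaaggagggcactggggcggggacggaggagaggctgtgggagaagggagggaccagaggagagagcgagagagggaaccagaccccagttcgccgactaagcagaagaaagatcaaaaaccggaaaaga
MMP11, chr22:23772599-23772898, plus strand: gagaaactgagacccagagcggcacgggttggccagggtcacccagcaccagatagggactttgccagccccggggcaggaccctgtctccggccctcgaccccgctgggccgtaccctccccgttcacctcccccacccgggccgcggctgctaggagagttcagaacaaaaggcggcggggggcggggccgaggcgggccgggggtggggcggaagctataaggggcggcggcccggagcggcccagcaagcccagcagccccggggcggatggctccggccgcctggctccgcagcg
MMP10, chr11:102780579-102780878, minus strand: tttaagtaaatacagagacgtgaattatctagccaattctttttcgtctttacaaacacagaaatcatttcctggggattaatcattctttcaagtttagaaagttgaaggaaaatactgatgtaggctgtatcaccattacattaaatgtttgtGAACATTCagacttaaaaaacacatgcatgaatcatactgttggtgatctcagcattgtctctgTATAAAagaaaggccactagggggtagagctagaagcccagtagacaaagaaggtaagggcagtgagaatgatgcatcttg

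The MMP14 window was 55% G or C and the MMP11 window 74.3%, against 36.3% for MMP10 and a median of 58.7% over 35116 windows. The AP-1 motif TGACTCA was present in 4.95% of all windows and the heat shock element core GAANNTTC in 6.77%. The core promoter motif TATAAA was present in 11.5%, and the ETS factor motif CAGGAAG in 12.7%. The MMP14 and MMP11 windows held no match to these letters. The MMP10 window held GAACATTC starting 95 bases before the start and TATAAA starting 31 bases before it. No motif overlapped another.

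Depth was alike between the groups. Totals lay between 94615430 and 108074289 estimated counts with TNFα plus LED and between 86000253 and 107139947 with TNFα alone. Judging from the low values, about 4 count units stood for a single fragment, and fragment numbers here are counts divided by 4. TNFα replicate 8 and LED replicate 6 stood apart, at a root mean square deviation of 0.733 and 0.619 from the 6-library mean on the log2 scale, against 0.465 to 0.506 in the other 4. The label of a synovial fibroblast line was checked against its markers. Of 11 fibroblast markers 10 were detected well enough to be tested, among them COL1A1 and COL1A2, and none was called by edgeR, DESeq2 or limma-voom (0 higher and 1 lower at an unadjusted p below 0.05 in each). Their summed level was 24080.3 to 25473 CPM with TNFα plus LED and 28302 to 30342 CPM with TNFα alone, without overlap, and its part in the results was not tested. The lining marker PRG4 was at or near 0 in every library (at most 0.0787 CPM). Among 9 macrophage markers TYROBP and AIF1 were at 0 in every library and PTPRC in 5 of 6. CSF1R had 0.511 to 1.82 CPM and CD14 had 0.169 to 0.83 CPM over the 6 libraries. The summed level of this list was 115 to 155 CPM with TNFα plus LED and 93.5 to 139 CPM with TNFα alone, nearly all of it CD68, a lysosomal protein that fibroblasts also make. No endothelial, lymphocyte or epithelial marker was called by edgeR either, but a call compares the groups and does not show whether a marker is absent. The endothelial marker TEK had 56.7 to 112 CPM over the 6 libraries. The epithelial keratins KRT18 and KRT8 had 28.4 to 46.2 CPM and 5.79 to 9.35 CPM. The endothelial marker KDR had 3.51 to 9.2 CPM, and CDH5 was at 0 in every library. Of the lymphocyte markers, CD3E, CD3D, CD2 and MS4A1 were at 0 in every library. CD79A had 0.557, 0.398 and 0.0519 CPM in LED replicates 4, 6 and 10. In TNFα replicates 2, 8 and 14 it had 0.0359, 0 and 0.242 CPM. At an unadjusted p below 0.05 there were 1 higher and 1 lower endothelial markers (VWF and TEK) and none in the other lists.

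MMP14, the membrane-type enzyme, had 867, 974 and 1075 CPM (the usual CPM unit, computed on TMM-scaled library sizes) in LED replicates 4, 6 and 10, and 1517, 2279 and 1850.1 CPM in TNFα replicates 2, 8 and 14. Every light-exposed library was below every library with TNFα alone. The means were 972 ± 104 CPM with TNFα plus LED and 1882 ± 382 CPM with TNFα alone (SD, n = 3 each), and the log2 fold change was -0.95 ± 0.20 (SE, 95% interval -1.40 to -0.50, edgeR adjusted p = 0.0332). With about 22961 to 57892 fragments per library the gene was far above the range where counting error matters. The call was lost when any single library other than TNFα replicate 2 was left out, with adjusted p lowest when TNFα replicate 8 was dropped (0.0527) and highest when LED replicate 4 was (0.143). Its log2 fold change stayed between -1.10 and -0.79 across all 16 alternatives. The gene overlapped no annotated neighbour.

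MMP11, known as stromelysin-3, is a stromal enzyme activated inside the cell by furin. It had 1.13, 0.497 and 1.31 CPM in LED replicates 4, 6 and 10, and 2.19, 4.05 and 4.21 CPM in TNFα replicates 2, 8 and 14. Again no library of either group reached into the range of the other. It averaged 0.979 ± 0.426 CPM with TNFα plus LED and 3.48 ± 1.12 CPM with TNFα alone (SD, n = 3 each), a log2 fold change of -1.83 ± 0.42 (SE, 95% interval -2.78 to -0.88, edgeR adjusted p = 0.0418). These values rest on few fragments, about 30, 12.5 and 31.5 in the LED libraries and 61, 103 and 91.2 in the libraries with TNFα alone. The call was lost without any single library other than TNFα replicate 2 (adjusted p up to 0.131), with library totals in place of TMM (0.0514), with limma-voom (0.0515) and without both libraries that stood apart (0.0537). CHCHD10, a protein-coding gene on the opposite strand, shares 218 exon bases with MMP11, or 4.21% of its exons. The sources used here do not say whether counting used strand. CHCHD10 itself had 9.33 ± 1.55 CPM with TNFα plus LED and 8.62 ± 1.74 CPM with TNFα alone (SD, n = 3 each, log2 fold change 0.11 ± 0.22, SE, edgeR adjusted p = 0.807).

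**Figure D1:**
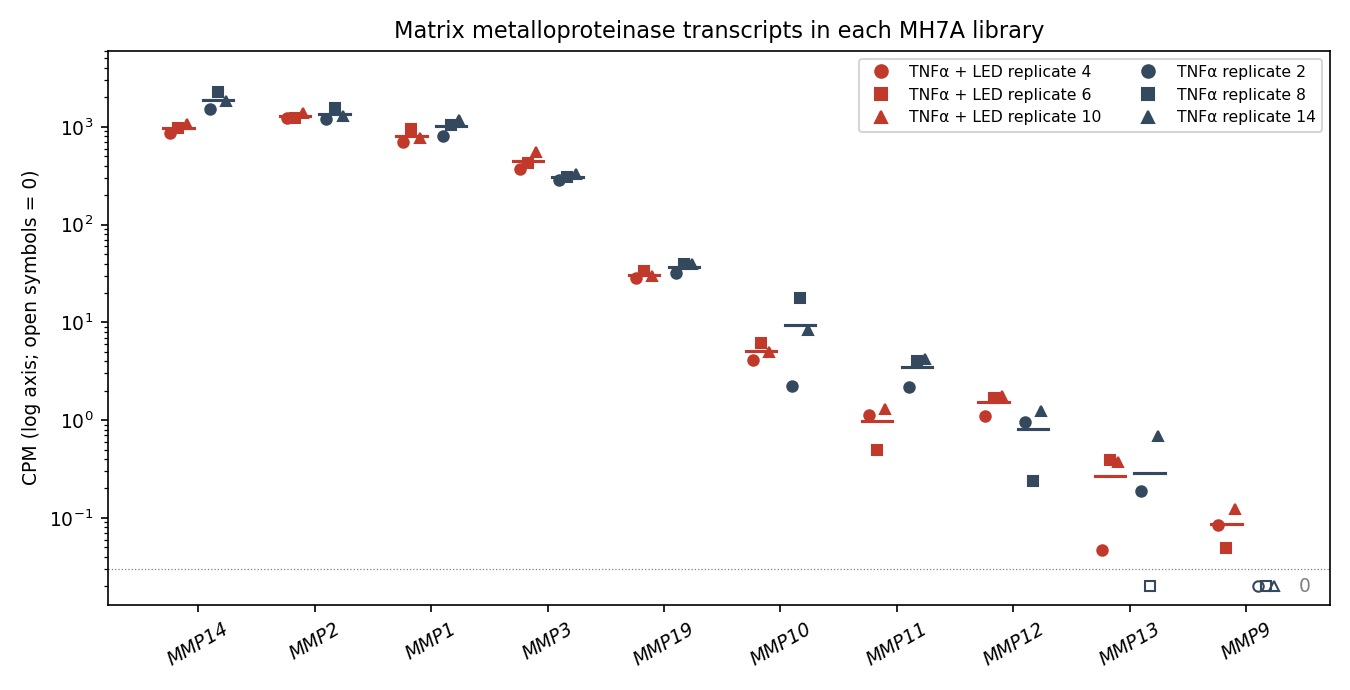
Level of each member in each library, in CPM on a log axis, with TNFα plus LED in red to the left of TNFα alone in dark blue. Points are libraries, short lines are group means and open symbols on the lowest row are values of 0. Among the 9 tested members, the light-exposed libraries of MMP14 and MMP11 all lie below the others and those of MMP3 all lie above, from 367 to 548 CPM with TNFα plus LED against 286 to 333 CPM with TNFα alone. MMP9, which was not tested, is at 0 with TNFα alone and at or under the detection limit with TNFα plus LED.

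Among the secreted collagenases and stromelysins, MMP3, the main stromelysin of synovial fibroblasts, went against the lower direction of most members. It had 367, 422 and 548 CPM in LED replicates 4, 6 and 10, and 286, 307 and 333 CPM in TNFα replicates 2, 8 and 14. The groups did not overlap, with LED replicate 10 the highest. The log2 fold change was 0.53 ± 0.19 (SE, 95% interval 0.10 to 0.96), and the adjusted p of 0.139 did not pass. Across the 16 alternatives it lay between 0.35 and 0.66, with adjusted p between 0.0809 (DESeq2) and 0.369, and it passed in none. MMP3 was the 1 tested member with a higher range that did not overlap, and MMP14 and MMP11 were the 2 with a lower one. Over all tested genes 16.2% had a higher range without overlap and 16.2% a lower one.

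MMP1, the interstitial collagenase, had 699, 958 and 770.0 CPM in LED replicates 4, 6 and 10, and 814, 1055 and 1179 CPM in TNFα replicates 2, 8 and 14. LED replicate 6 lay above TNFα replicate 2, so the groups overlapped. A pseudogene on the opposite strand, WTAPP1, shares 150 exon bases with MMP1 and 32 with MMP3, and was not in the count table. The log2 fold change of -0.33 ± 0.20 (SE, edgeR adjusted p = 0.384) had a 95% interval of -0.79 to 0.13. A fall beyond 0.79 on the log2 scale was therefore outside the interval, while smaller falls and slight rises were inside it.

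MMP10, the second stromelysin, varied widely among the TNFα-alone libraries. It had 4.14, 6.22 and 4.93 CPM in LED replicates 4, 6 and 10, and 2.21, 17.9 and 8.33 CPM in TNFα replicates 2, 8 and 14. The LED libraries lay inside the wide range of the other group. The log2 fold change was -0.90 ± 0.57 (SE, 95% interval -2.19 to 0.40, edgeR adjusted p = 0.399), and -1.38 with an adjusted p of 0.0469 once TNFα replicate 2 was left out, or -0.05 once TNFα replicate 8 was. MMP3 and MMP10 are close paralogs, and the sources used here do not say how reads matching both were counted. MMP13, a collagenase best known from cartilage, was barely detected, with 0.0472, 0.388 and 0.373 CPM in LED replicates 4, 6 and 10 and 0.188, 0 and 0.681 CPM in TNFα replicates 2, 8 and 14. That is at most about 14.8 fragments in a library, and the 95% interval of its log2 fold change, -2.90 to 2.71, allows a large change in either direction.

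**Figure D2:**
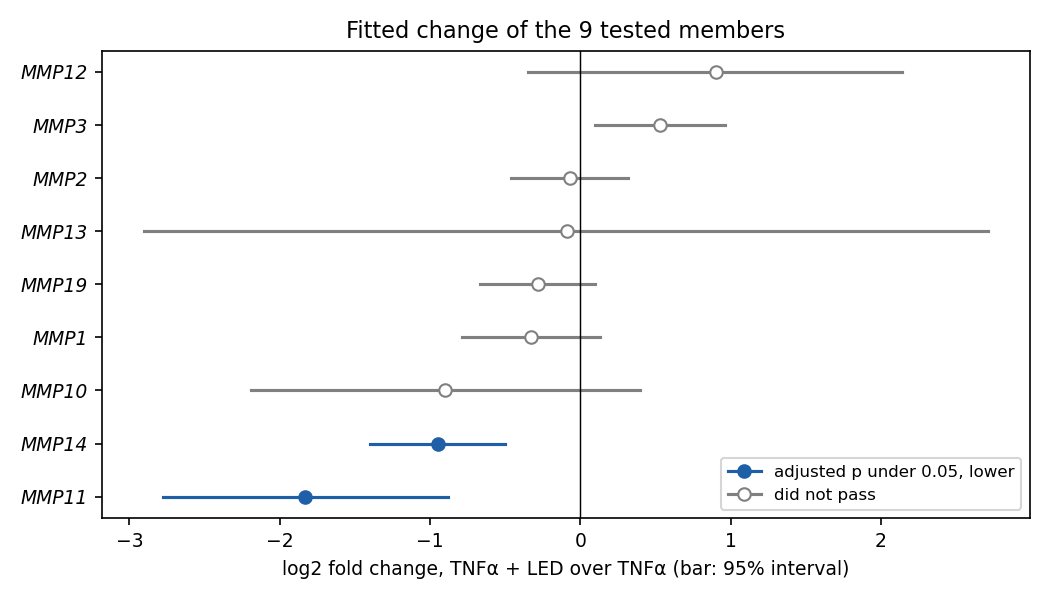
Log2 fold change (TNFα plus LED over TNFα alone) of the 9 tested members from the edgeR fit, with 95% intervals as bars. MMP11 at -1.83 and MMP14 at -0.95 passed the test over all genes, and the other 7 did not, MMP3 at 0.53 with an interval above 0 included.

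The gelatinase MMP2, which cuts denatured collagen, differed little between libraries. It had 1242, 1242 and 1373 CPM in LED replicates 4, 6 and 10, and 1202, 1556 and 1295 CPM in TNFα replicates 2, 8 and 14. The LED libraries lay inside the range of the other group, and the log2 fold change was -0.07 ± 0.17 (SE, 95% interval -0.46 to 0.32, edgeR adjusted p = 0.847). MMP9, the gelatinase of neutrophils and macrophages, had 0.0849, 0.0497 and 0.124 CPM in the LED libraries and 0 in each library with TNFα alone. With no library above 3 fragments, MMP9 was at or under the detection limit in both groups, and no fold is given.

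MMP19, a secreted enzyme made in many tissues, had 28.3, 33.5 and 29.5 CPM in LED replicates 4, 6 and 10, and 31.7, 39.8 and 39.5 CPM in TNFα replicates 2, 8 and 14. Its exons share 814 bases with the opposite-strand pseudogene TMEM198B. LED replicate 6 lay above TNFα replicate 2, and the log2 fold change was -0.28 ± 0.17 (SE, edgeR adjusted p = 0.373). MMP12, the macrophage elastase, was the other member with a higher fitted value, at 1.10, 1.70 and 1.75 CPM in the LED libraries and 0.968, 0.236 and 1.25 CPM in TNFα replicates 2, 8 and 14. TNFα replicate 8 was lowest, and the log2 fold change of 0.90 ± 0.55 (SE, edgeR adjusted p = 0.382) was 0.46 without that library.

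Set per length of annotated exon, the members formed an abundant and a scarce group. That length joined all annotated exons of a gene, at 1970 bases for MMP1, 2048 for MMP3, 4464 for MMP14 and 4933 for MMP2. The transcripts made may be shorter. The order, ranks and shares of the members depend on this choice, and no other length was tried. In cells with TNFα plus LED the order of mean CPM per kb was MMP1 (411 ± 68, SD, n = 3), MMP2 (261 ± 15.3), then MMP14 (218 ± 23.4) and MMP3 (218 ± 45.1). In cells with TNFα alone it was MMP1 (516 ± 94.2), MMP14 (422 ± 85.6), MMP2 (274 ± 37.3) and MMP3 (151 ± 11.5). MMP14 thus stood above MMP2 in every library with TNFα alone and below it in every LED library, where its range of 194 to 241 CPM per kb overlapped that of MMP3. MMP1 and MMP14 overlapped with TNFα alone (413 to 598 against 339.9 to 511 CPM per kb). Averaged over the 6 libraries, these 4 members ranked 43 (MMP1), 76 (MMP14), 96 (MMP2) and 171 (MMP3) among 19208 genes by CPM per kb. The next was MMP19 at 6.52 ± 0.578 CPM per kb with TNFα plus LED and 7.92 ± 0.98 with TNFα alone, and MMP10, whose TNFα-alone range of 1.26 to 10.2 spanned that of MMP19. MMP12, MMP11, MMP13 and MMP9 were all below 1 CPM per kb.

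**Figure D3:**
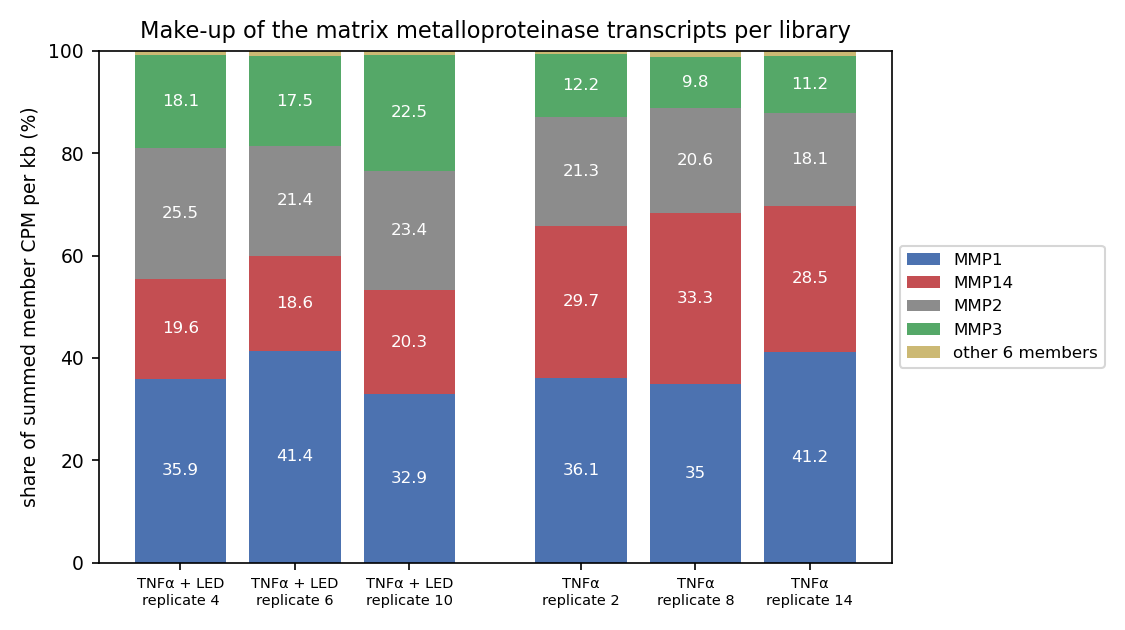
Share of each of the 4 abundant members, and of the other 6 together, in the summed CPM per kb of the 10 members in each library, in percent, with the LED libraries on the left. The share of MMP14 was 18.6% to 20.3% with TNFα plus LED and 28.5% to 33.3% with TNFα alone, and that of MMP3 was 17.5% to 22.5% with TNFα plus LED and 9.8% to 12.2% with TNFα alone.

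The make-up of the family's transcripts therefore differed between the groups while the share of MMP1 overlapped, at 32.9% to 41.4% with TNFα plus LED and 35% to 41.2% with TNFα alone. The share of MMP2 was also higher without overlap, at 21.4% to 25.5% with TNFα plus LED and 18.1% to 21.3% with TNFα alone. Shares within a library add up to a fixed whole. A lower share of MMP14 thus raises the others, and the shares are not separate changes. The 4 secreted collagenases and stromelysins (MMP1, MMP3, MMP10 and MMP13) summed to 537, 696 and 661 CPM per kb in LED replicates 4, 6 and 10, and to 554, 696 and 766 CPM per kb in TNFα replicates 2, 8 and 14. These ranges overlapped. MMP14 with the stromal and widely made enzymes MMP2, MMP11 and MMP19 summed to 452, 477 and 526 CPM per kb in the LED libraries and to 591, 835 and 686 CPM per kb in TNFα replicates 2, 8 and 14, without overlap. The sums are dominated by the abundant members and are given as a description. The second sum holds both members that were called lower, and its lack of overlap reflects MMP14. MMP2, its other abundant member, overlapped, at 252 to 278 CPM per kb with TNFα plus LED and 244 to 316 with TNFα alone.

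Ratios of counts within a library do not depend on how libraries are scaled. The log2 ratio of MMP14 to MMP2 was -0.52, -0.35 and -0.35 in LED replicates 4, 6 and 10, and 0.34, 0.55 and 0.52 in TNFα replicates 2, 8 and 14. The difference between the group means was -0.87, against SDs of 0.10 with TNFα plus LED and 0.11 with TNFα alone, and the ratio was chosen after the values were seen. The log2 ratio of MMP3 to MMP1 was -0.93, -1.18 and -0.49 in the LED libraries and -1.51, -1.78 and -1.82 in TNFα replicates 2, 8 and 14. It was higher in each LED library, by 0.84 on the log2 scale between the means. MMP14 against MMP3 differed most among the ratios computed, at 1.14 ± 0.14 with TNFα plus LED and 2.59 ± 0.26 with TNFα alone (SD, n = 3 each).

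**Figure D4:**
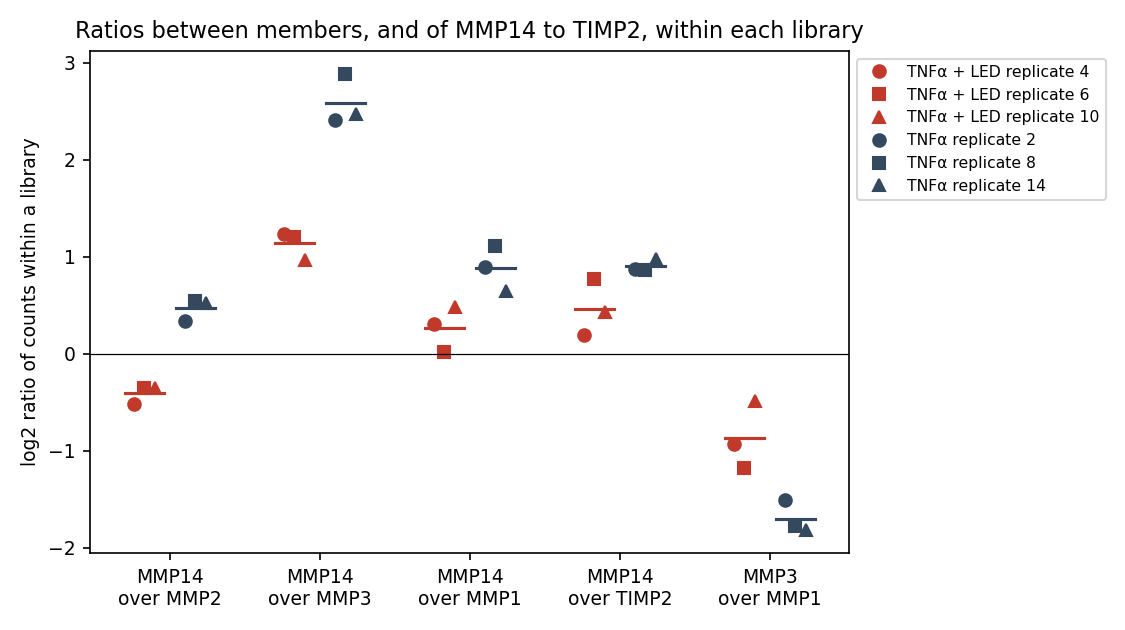
Log2 ratio of counts within each library for pairs of members and for MMP14 to its partner TIMP2, with TNFα plus LED in red to the left of TNFα alone in dark blue. Points are libraries and short lines are means. MMP14 over MMP2 lies between -0.52 and -0.35 in the LED libraries and between 0.34 and 0.55 in the others.

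Shifts shared by many genes separated the same groups of libraries as MMP14 did. As deviations from the 6-library mean on the log2 scale, MMP14 was at -0.61, -0.56 and -0.29 in LED replicates 4, 6 and 10, and at 0.24, 0.75 and 0.48 in TNFα replicates 2, 8 and 14. The median of 10 mitosis genes (among them BUB1, KIF11, KIF23 and NUF2, with 7 of the 10 called lower) was at -0.402, -0.773 and -0.588 in the LED libraries, and at 0.323, 0.816 and 0.531 in TNFα replicates 2, 8 and 14. The median of 12 heat shock genes (among them BAG3, FKBP4, HSPH1 and HSPA4L, all 12 called higher) was at 1.92, 2.17 and 1.26 in the LED libraries, and at -1.57, -1.58 and -1.85 in TNFα replicates 2, 8 and 14. The part of cell division or of the heat shock response in the lower MMP14 was not tested. In bulk RNA, fewer cells making a transcript and less of it per cell cannot be told apart.

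For MMP1, MMP3 and MMP14 the genes of most similar pattern were sought among 8985 other genes averaging at least 10 CPM, by the root mean square difference of centred log2 CPM over the 6 libraries. Nearest to MMP14 were ITPR3, a calcium release channel (0.056), MAD2L1, a spindle checkpoint protein (0.080), and LIMD2 (0.089), against a median of 0.546 over all these genes. All 3 were called lower, at log2 fold changes of -0.88, -0.91 and -1.01. Nearest to MMP1 were SQOR (0.064), RAB24 (0.086) and UBE2L6 (0.090), where the median was 0.361, and MMP19 was the closest member at 0.094. Nearest to MMP3 were DACT1 (0.095), ASAH1 (0.103) and RCOR1 (0.111), where the median was 0.405. None of these 6 passed the test. All the genes named here were picked for matching a member's values. Their small distances and their likeness in calls therefore follow from that choice. The closest member to MMP3 was MMP2, at 0.334.

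Beyond the 10 members, 13 other metalloproteinases of the family were listed, and 8 had enough counts to be tested. None rose or fell by edgeR, DESeq2 or limma-voom, and each tool had 1 lower and 0 higher at an unadjusted p below 0.05. MMP17, a membrane-type enzyme held by a lipid anchor, had 3.97 ± 0.426 CPM with TNFα plus LED and 5.96 ± 1.10 CPM with TNFα alone (SD, n = 3 each), with no overlap and an adjusted p of 0.168 by edgeR. MMP16, also membrane-type, lay higher without overlap, at 7.74 ± 0.279 CPM with TNFα plus LED and 6.23 ± 1.25 CPM with TNFα alone (SD, n = 3 each, edgeR adjusted p = 0.425). MMP24, another membrane-type enzyme, had 1.52 ± 0.609 CPM with TNFα plus LED and 0.896 ± 0.177 CPM with TNFα alone (edgeR adjusted p = 0.297). The median log2 fold change of the 8 was 0.20.

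Of 6 inhibitors (TIMP1 to TIMP4, RECK and A2M), with a median log2 fold change of 0.05, none rose or fell by any of the 3 tools, with 2 lower and 0 higher at an unadjusted p below 0.05 in each. TIMP2, which docks the MMP2 precursor onto MMP14, had 758, 573 and 800.4 CPM in LED replicates 4, 6 and 10, and 824, 1258 and 936 CPM in TNFα replicates 2, 8 and 14. The groups did not overlap, and the log2 fold change was -0.50 ± 0.22 (SE, edgeR adjusted p = 0.207). RECK, a membrane-anchored inhibitor of MMP2, MMP9 and MMP14, had 37.1 ± 9.29 CPM with TNFα plus LED and 59.5 ± 13.6 CPM with TNFα alone (SD, n = 3 each, edgeR adjusted p = 0.135). Among the 16 alternatives it passed only without both libraries that stood apart (adjusted p = 0.0229). The log2 ratio of MMP14 to TIMP2 was 0.46 ± 0.29 with TNFα plus LED and 0.91 ± 0.07 with TNFα alone (SD, n = 3 each), with no overlap.

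Of 13 tested genes that activate metalloproteinases or regulate plasmin, 2 fell, 0 rose and 11 did not pass by edgeR. Their median log2 fold change was -0.26. For this list and those below, the edgeR shares over all tested genes were 2.44% higher and 2.73% lower, with a median of 0.01. Limma-voom called the same 2, PLAU and PLAT, and DESeq2 called 3 lower, with SERPINB2 added. SERPINB2, an inhibitor of plasminogen activators, had 1046 ± 188 CPM with TNFα plus LED and 2246 ± 935 CPM with TNFα alone (SD, n = 3 each, edgeR adjusted p = 0.0621), without overlap. PLAU and PLAT are plasminogen activators, whose product plasmin can cut the propeptides of MMP1 and MMP3. PLAU had 560.1, 671 and 705 CPM in LED replicates 4, 6 and 10, and 2480.2, 2598 and 2411 CPM in TNFα replicates 2, 8 and 14. The log2 fold change was -1.95 ± 0.18 (SE, edgeR adjusted p = 0.00159) and passed in each of 16 alternatives. PLAT, at 41.2 ± 5.94 CPM with TNFα plus LED and 90.3 ± 8.74 CPM with TNFα alone (SD, n = 3 each), passed in 13 of them (edgeR adjusted p = 0.0146, and up to 0.0675 without LED replicate 4, LED replicate 6 or TNFα replicate 14). Plasminogen itself, PLG, was at 0 in all libraries.

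Of 15 transcription factors with a known part in metalloproteinase expression, 1 rose, 0 fell and 14 did not pass, with a median of 0.08. The one that rose was ETS1, a factor that binds the promoters of several members, at 275 ± 50.4 CPM with TNFα plus LED and 117 ± 6.35 CPM with TNFα alone (SD, n = 3 each, log2 fold change 1.23 ± 0.18, SE, edgeR adjusted p = 0.0115, lost without TNFα replicate 14 at 0.053). None of 7 AP-1 subunits passed by edgeR or limma-voom, 1 did by DESeq2 (FOSB), and 2 were higher and 0 lower at an unadjusted p below 0.05 by edgeR. Among 11 inducing cytokines and receptors 1 fell, 1 rose and 9 did not pass, with a median of -0.57 (DESeq2 also called IL6 and IL1A lower). IL1B, which induces MMP1 and MMP3, had 22.9 ± 8.64 CPM with TNFα plus LED and 70.5 ± 24.8 CPM with TNFα alone, at an edgeR adjusted p of 0.0281 (SD, n = 3 each). LIF, a cytokine of the IL6 family, had 62.6 ± 10.4 CPM with TNFα plus LED and 19.5 ± 12.7 CPM with TNFα alone, at an edgeR adjusted p of 0.0475 (SD, n = 3 each). The IL1B call ended without LED replicate 4, LED replicate 6 or TNFα replicate 14 and without both libraries that stood apart (adjusted p up to 0.172). The LIF call ended in every single omission other than that of TNFα replicate 2, with library totals and without both (adjusted p up to 0.156).

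Of 18 matrix proteins that these enzymes can cut, 1 rose, 1 fell and 16 did not pass, with a median of -0.21. Over all tested genes 2.44% were called higher and 2.73% lower, so a single call is no result about a list. COL4A1, a chain of basement membrane collagen, fell by 0.70 on the log2 scale (edgeR adjusted p = 0.0475), and the call was lost in each of the 6 single-library omissions (adjusted p up to 0.217). COL2A1, the cartilage collagen, had 0.897, 0.437 and 0.353 CPM in LED replicates 4, 6 and 10 and 0 in every library with TNFα alone, which is at least 4.63-fold higher against a floor of 3 fragments per library. Its call (edgeR adjusted p = 0.0172) was lost without LED replicate 4, LED replicate 6 or TNFα replicate 14 (up to 0.0967). COL2A1 passed the count filter only through the LED libraries, where it is high, so the call is no separate support. It failed the filters at 1 CPM and with counts divided by 4.

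**Figure D5:**
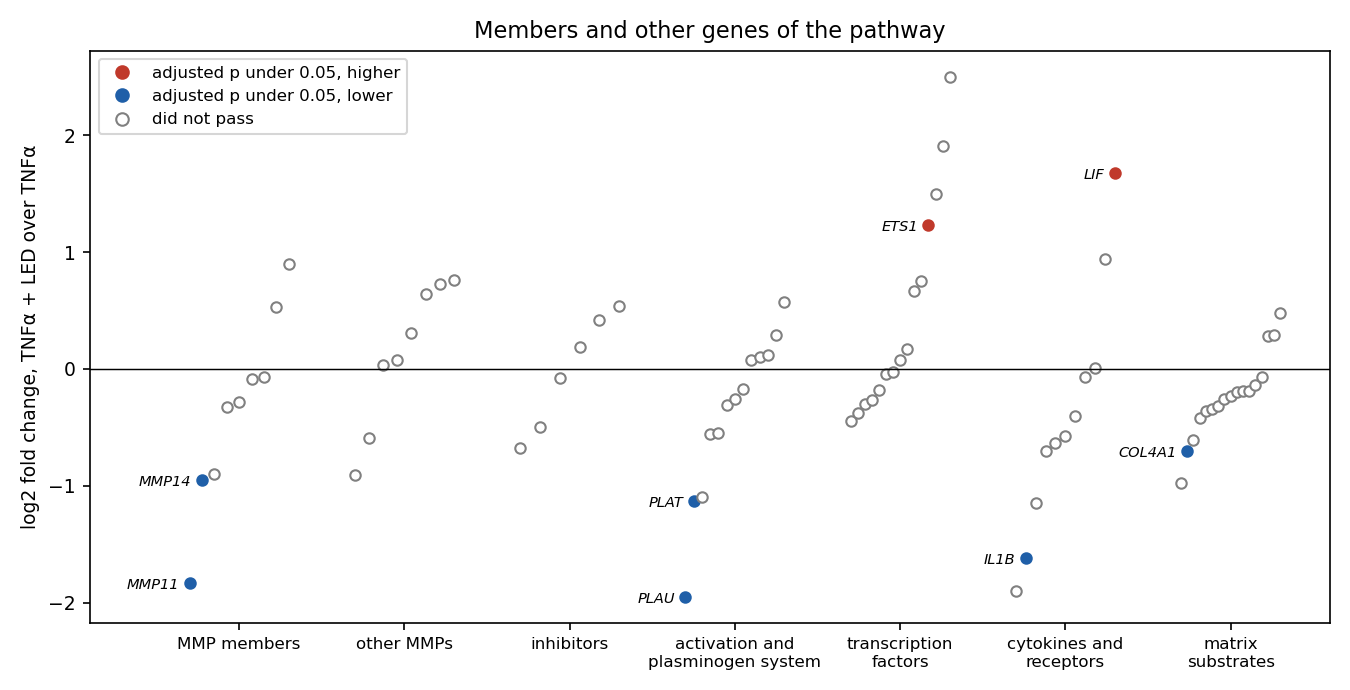
Log2 fold change (TNFα plus LED over TNFα alone) of each tested gene in 7 lists, sorted within a list. Filled points passed the edgeR test over all genes (blue lower, red higher) and open points did not. COL2A1, at 0 in every library with TNFα alone, is left out. MMP14 and MMP11 stand with PLAU, PLAT, IL1B and COL4A1 among the genes that fell, and ETS1 and LIF are those that rose.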

How the data were processed

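Total RNA was depleted of ribosomal RNA, heat-fragmented and randomly primed, per the labels' protocols. Per the submitters' processing notes, the tools included HISAT2, StringTie, bcl2fastq 2.0, limma and DESeq2, with no roles stated. The notes list mouse mm10 for these human samples, so the human build is not known. The deposited table holds estimated counts per gene symbol as whole numbers, and 67.2% of values from 1 to 7 were 4 or 5. No rounding was needed.

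The test was edgeR 4.0.16 in R 4.3.3 (quasi-likelihood, filterByExpr, TMM, robust), two-sided, without covariates, on all 6 libraries, with Benjamini-Hochberg adjustment over 13794 genes and a threshold of 0.05. CPM used TMM-scaled library sizes, and deviations and pattern distances used log2 CPM with a prior count of 2. The SE is the log2 fold change divided by the square root of F. The detection floor was 3 fragments, or 12 units, covering counting error only. Exon lengths, neighbours and overlaps came from GENCODE release 29, which matched 19208 of 19475 symbols. The procedure was also run on counts simulated from the means and dispersions estimated from these libraries. Those counts held no library that stood apart, so they cannot show how the procedure handles one. Alternatives were other filters and scalings, DESeq2 1.42.0, limma-voom (limma 3.58.1), counts divided by 4, a threshold of 0.1 and libraries left out.

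Nothing in the labels tells whether replicates were separate cultures, and the spread behind the p-values may therefore be technical. Chi-square per degree of freedom between libraries of a group was 103 or more, so none was a copy. The members and lists were chosen with earlier results of these data known. Named genes were all members, from each list as many as 4 called genes by p (where a list had no call, its 2 lowest), and the 3 nearest in pattern to MMP1, MMP3 and MMP14. CHCHD10, MMP16, WTAPP1, TMEM198B, PLG, PRG4, COL1A2, CD14, CD68, KDR and the markers at 0 were named after their values were seen. So were the genes DESeq2 alone called (FOSB, IL6, IL1A and SERPINB2) and all ratios but MMP3 to MMP1.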

Additional observations from a re-analysis of the deposited data

How the results depend on the processing

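The count of members called lower, 2 in the main analysis, was 1 with library totals in place of TMM, 1 with limma-voom and 1 without both libraries that stood apart (MMP14 in each case). With single libraries left out it ranged from 0 to 3, being 3 without TNFα replicate 2, where MMP10 joined, and 0 without any other library. In these omissions the log2 fold change of MMP14 ranged from -1.10 to -0.79. Over all genes, single omissions gave 59 to 314 higher and 21 to 423 lower calls, against 336 and 377 in the main analysis. DESeq2 gave 837 and 809, leaving out both libraries that stood apart 763 and 906, and a threshold of 0.1 gave 695 and 776. MMP1 and MMP3 kept their direction and did not pass in any of 16 alternatives, and no alternative called a member higher. The log2 fold change of MMP2, -0.07, ranged from -0.16 to 0.042 with single libraries left out, and was 0.070 without both libraries that stood apart. That of MMP13, -0.09, ranged from -0.68 to 1.49 with single libraries left out (above 0 without LED replicate 4 or TNFα replicate 14) and was 1.23 with limma-voom. MMP13 failed the filter at 1 CPM and with counts divided by 4. The cause was not tested. Depth limits MMP9 and MMP13, with at most 14.8 fragments in every library. No paired analysis was possible because the labels do not say whether libraries of the 2 groups were paired.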

Other observations

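In TNFα replicate 8 the members that lie side by side on chromosome 11 (in the order MMP10, MMP1, MMP3, MMP12, MMP13) went different ways. As deviations from the 6-library mean on the log2 scale, MMP10 was 1.58 above it and MMP1 0.22 above it, while MMP3 was at -0.28, MMP12 at -2.0 and MMP13 at -3.16, the last of these from a count of 0. The values of MMP12 and MMP13 rest on few fragments. MMP12 had about 6 in TNFα replicate 8 and at most 42.8 in any library, and MMP13 at most 14.8. MMP7, which lies in the same stretch and is not among the 10 members, had 0.157 CPM there, against 0.807 and 0.816 CPM in the other libraries with TNFα alone. The detection floor in TNFα replicate 8 was 0.118 CPM. FAP, a marker of activated synovial fibroblasts, had 47.3 CPM there, against 120.4 and 121 CPM in the other TNFα-alone libraries. These values were singled out after they were seen and were not tested.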
